A study of Mus musculus with 12 samples.

Results

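The complement genes described here are 9 genes of the innate immune complement cascade and its inhibitors, C3, C4b, Cfd, Cfb, C1qa, C1qb, Serping1, Cd55 and Cd59a, measured on Affymetrix Mouse 430A arrays of muscle cells. Their members are the probe sets, groups of short oligonucleotides read as 1 signal, that the array's annotation pairs with exactly 1 of these genes. Among 22690 deposited probe sets, 20380 had exactly 1 gene, and 10 of these belonged to 6 of the 9 genes. C1qb had 3 probe sets, Cd55 and Cd59a had 2 each, and C1qa, Cfb and Serping1 had 1 each. The other 3 genes, C3, C4b and Cfd, had no probe set listed with that gene alone and were not analysed here. A probe set shared by C4a and C4b and another shared by Cd55 and its neighbouring paralog Cd55b, 2 in all, were left out by the same rule.

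Complement is a set of plasma and membrane proteins in which an activated protease cleaves the next component, leading to tagging of surfaces by C3 fragments and to a pore in the target membrane. The C1 complex, built from the recognition protein C1q and the proteases C1r and C1s, starts the classical pathway, and factor B (Cfb) supplies the protease of the alternative pathway. Cells hold the cascade in check with the secreted C1 inhibitor (Serping1), with Cd55, a membrane protein that speeds the decay of C3 convertases, and with Cd59a, a membrane protein that blocks assembly of the pore. C1q is made largely by macrophages and dendritic cells, whereas fibroblasts and other stromal cells make C1r, C1s, Serping1 and factor B.

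Cells came from hind limb muscles of C57BL/6J mice aged 8 to 12 weeks, in 3 groups of 4 arrays. Quiescent satellite cells, the resting stem cells of muscle, bound the antibody SM/C-2.6 and were taken directly after sorting, and the labels give more than 97% of them as Pax7-positive. Activated satellite cells were SM/C-2.6-positive cells grown for 4 days in DMEM with 20% fetal calf serum and 2.5 ng/ml basic fibroblast growth factor, with more than 99% MyoD-positive. Non-myogenic cells were negative for SM/C-2.6 and for the leukocyte antigen CD45, were taken directly after sorting and held less than 1% myogenic cells. No CD45 gate is named for the SM/C-2.6-positive fraction, and the part of this in the C1q signals was not tested. Only the activated cells were cultured, so activation, culture and time since sorting cannot be told apart. No genotype, allele or other agent is named for any group. Whether the 4 samples of each group derive from different animals or cultures is not stated, so a p-value here reflects the spread among these samples alone, and that spread may be technical.

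The defining markers followed the labels. Pax7, the satellite cell transcription factor, had a mean signal of 1071 ± 572 (SD, n = 4) in quiescent, 90.2 ± 31.7 in activated and 4.07 ± 2.42 in non-myogenic cells, while Myod1, the myoblast transcription factor, had 1277, 4629 and 36.2 and the calcitonin receptor gene Calcr 768, 9.18 and 9.22. RNA was labelled with a small-sample kit on 5 arrays (2 quiescent, 2 activated, 1 non-myogenic) and with a two-cycle kit on 7 (2, 2 and 3). The mean of the deposited signals, trimmed by 2% at each end, was 323.2 to 501.5 with the former and 160.4 to 235.6 with the latter, so signals are given after scaling every array to a common trimmed mean of 235.142. A probe set was tested when its mean signal over all arrays reached 47.028, which 12072 did, and differences are limma differences of log2(signal + 14.6964), with a term for the kit and Benjamini-Hochberg adjustment over all probe sets tested. That pseudocount makes differences at low signals smaller than the ratio of the signals themselves. Of the 10 complement probe sets 5 reached that signal, those of Serping1, Cfb, both of Cd55 and 1 of Cd59a, and those of Cfb and Cd55 did so only through the non-myogenic arrays. A called difference has an adjusted p under 0.05.

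Serping1, which encodes the C1 inhibitor, the serpin that inactivates C1r and C1s, was high in both freshly sorted groups and low on all 4 arrays of the cultured cells. At probe set 1416625_at the quiescent arrays had signals of 4491, 3322, 5174 and 5358. The activated arrays had 33.5, 18.5, 13.2 and 12.8. The non-myogenic arrays had 4998, 7887, 9089 and 9190. No activated array came near the other groups, while the lowest non-myogenic array, the only one of the small-sample kit, lay within the quiescent range. The group means were 4586 ± 922 (SD, n = 4), 19.5 ± 9.69 and 7791 ± 1954, so that the activated mean was 0.426% of the quiescent mean. The activated cells were lower than the quiescent cells by a log2 difference of -7.09 ± 0.23 (SE, limma adjusted p 7.17e-11), or 136-fold on that scale. It was -6.60 on the small-sample arrays alone and -7.57 on the two-cycle arrays alone, and the difference between kits (-0.98 ± 0.31) had a limma adjusted p of 0.0886. Against non-myogenic cells the activated cells differed by -7.79 ± 0.24 (limma adjusted p 1.22e-11). All activated signals lay below the filter level, and the size of the activated minus quiescent difference moved with the pseudocount. It was -5.87 with 1/4 of the trimmed mean as pseudocount and -7.69 with 1/64.

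The step between quiescent and non-myogenic cells was small for Serping1 and close to the limit of the test. The quiescent mean was 58.9% of the non-myogenic mean, with a log2 difference of -0.70 ± 0.24 and a limma adjusted p of 0.0263. Within the small-sample kit the difference was -0.37 (limma adjusted p 0.494), with 1 non-myogenic array, and within the two-cycle kit it was -0.72 (0.00322). The limma adjusted p rose to 0.0617 without quiescent replicate 2, 0.0644 without non-myogenic replicate 3 and 0.065 without non-myogenic replicate 4, to 0.0555 with a pseudocount of 1/64 of the trimmed mean in place of 1/16, and to 0.104 with a replicate block. The unscaled signals gave a log2 difference of -1.06 (limma adjusted p 0.00197).

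Cd59a, a lipid-anchored membrane inhibitor of the terminal pore, followed a similar order at both of its probe sets, with a smaller difference between activated and quiescent cells. At 1418710_at the quiescent arrays had signals of 214, 134, 166 and 171. The activated arrays had 47.3, 48.7, 18.9 and 24.2, with the small-sample pair above the two-cycle pair. The non-myogenic arrays had 232, 259, 265 and 185, so 1 of them lay inside the quiescent range and no activated array reached either other group. The means were 171 ± 32.6 (SD, n = 4), 34.8 ± 15.4 and 235 ± 36.6. Activated cells were lower than quiescent cells by a log2 difference of -1.95 ± 0.20 (limma adjusted p 1.83e-06), with -1.56 on the small-sample and -2.34 on the two-cycle arrays. They were lower than non-myogenic cells by -2.45 ± 0.21 (limma adjusted p 1.62e-07). Quiescent cells stood at 72.8% of the non-myogenic mean, a log2 difference of -0.50 ± 0.21 that did not pass the test (limma adjusted p 0.0579). It passed with unscaled signals (-0.86, limma adjusted p 0.00766), with median centring (-0.50, 0.0407), with a pseudocount of 1/4 of the trimmed mean (-0.39, 0.0375), without non-myogenic replicate 1 (-0.63, 0.0473) and without non-myogenic replicate 4 (-0.58, 0.0493).

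The second Cd59a probe set, 1429830_a_at, had a mean below the signal filter and was read from the fit of all 20380 probe sets without a filter. Its quiescent signals were 46.1, 45.4, 28.6 and 54.8, its activated signals 6.9, 10.2, 14.3 and 11.4, and its non-myogenic signals 53.2, 52.7, 67.7 and 48.2. Here too the activated arrays lay below both other groups, which overlapped. The log2 difference was -1.19 ± 0.17 between activated and quiescent cells (limma adjusted p 6.76e-05), -1.45 ± 0.17 between activated and non-myogenic cells (1.07e-05) and -0.26 ± 0.17 between quiescent and non-myogenic cells (0.267).

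Cd55, the decay-accelerating factor, was in contrast highest in the non-myogenic cells by a wide margin. At 1418762_at the non-myogenic arrays had signals of 759, 854, 668 and 758. The quiescent arrays had 41.4, 23.6, 29.3 and 68.6, and the activated arrays 9.11, 20.8, 6.49 and 6.12. The groups did not overlap, although the activated array of 20.8 and the quiescent array of 23.6 lay close together. The means were 760 ± 76.1 (SD, n = 4), 40.7 ± 20.0 and 10.6 ± 6.92, which put quiescent cells at 5.36% of the non-myogenic mean. The log2 difference between quiescent and non-myogenic cells was -3.87 ± 0.24 (limma adjusted p 3.59e-08), with -4.06 on the small-sample and -3.67 on the two-cycle arrays. Between activated and non-myogenic cells it was -4.97 ± 0.24 (limma adjusted p 6.85e-10). Both Cd55 probe sets reached the filter only through the non-myogenic arrays, so their differences from them are partly a matter of selection.

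The second Cd55 probe set, 1460242_at, kept this order. Its non-myogenic arrays had signals of 194, 261, 205 and 203, its quiescent arrays 20.5, 32.0, 23.4 and 32.6, and its activated arrays 14.3, 9.52, 11.0 and 7.33. No 2 groups overlapped, and quiescent cells stood at 12.6% of the non-myogenic mean. The log2 difference was -2.46 ± 0.16 between quiescent and non-myogenic cells (limma adjusted p 5.07e-08) and -3.19 ± 0.16 between activated and non-myogenic cells (8.75e-10).

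Cd55 also fell between quiescent and activated cells, at signals that were mostly below the filter level in both groups. The log2 difference was -1.10 ± 0.24 at 1418762_at (limma adjusted p 0.00105) and -0.73 ± 0.16 at 1460242_at (0.00102). Within the small-sample kit neither probe set passed the test (-0.67 and -0.62, limma adjusted p 0.106 and 0.0773), and within the two-cycle kit both did (-1.53 and -0.84, limma adjusted p 0.00108 and 0.00471). The test of that difference between kits gave a limma adjusted p of 0.265 and 0.699. At 1460242_at the difference was -0.42 with median centring (limma adjusted p 0.0362) and -0.36 with quantile normalization (0.0539).

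Cfb, the zymogen of the alternative pathway's protease, had a signal above the filter level on every non-myogenic array and on no array of the other groups. At 1417314_at the non-myogenic arrays had signals of 237, 288, 232 and 269. The quiescent arrays had 15.8, 2.62, 23.6 and 10.8, and the activated arrays 4.63, 13.3, 13.0 and 2.3, and these 8 values overlapped. The means were 257 ± 26.8 (SD, n = 4), 13.2 ± 8.80 and 8.30 ± 5.67. The quiescent mean was thus 5.14% of the non-myogenic mean, a log2 difference of -3.30 ± 0.24 (limma adjusted p 1.24e-07), with -3.45 on the small-sample and -3.15 on the two-cycle arrays. Activated and non-myogenic cells differed by -3.55 ± 0.24 (limma adjusted p 1.45e-08). Cfb reached the filter only through the non-myogenic arrays, so its differences from them are partly a matter of selection. Activated and quiescent cells differed by -0.25 ± 0.23 (limma adjusted p 0.343), a value that turned to 0.02 within the small-sample kit, 0.07 with median centring and 0.02 with quantile normalization.

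**Figure D1:**
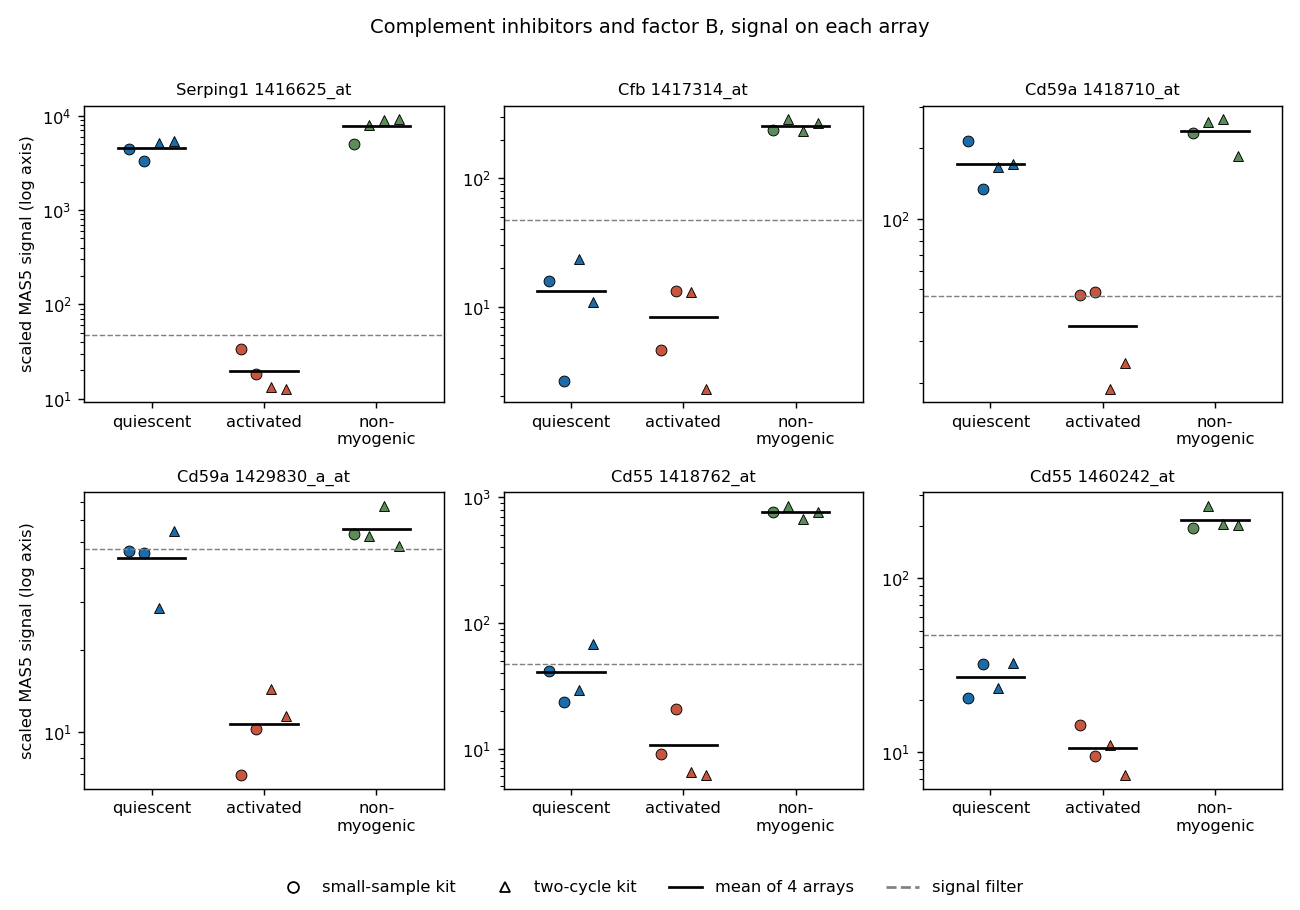
Scaled signal (log axis) of the 6 probe sets of Serping1, Cfb, Cd59a and Cd55 on each of the 12 arrays, in 3 groups of 4; circles are small-sample and triangles two-cycle arrays, black lines the group means, and the dashed line the signal filter of 47.028. The quiescent arrays lie near the non-myogenic ones for Serping1 and Cd59a and far below them for Cfb and Cd55.

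The 4 genes thus had 2 orders of level, with each probe set set only against itself. For Serping1 and Cd59a the non-myogenic and quiescent groups were neighbours with overlapping arrays, and the activated group stood apart. For Cd55 and Cfb the non-myogenic group, through which alone they reached the filter, stood apart. Of the neighbours quiescent and activated only those of Cd55 differed beyond their spread. The test of kit against group gave no limma adjusted p under 0.05 for any of the 10 probe sets in any of the 3 comparisons, the lowest with the filter being that of Serping1 given above and without it 0.0824 for C1qb at 1437726_x_at.

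**Figure D2:**
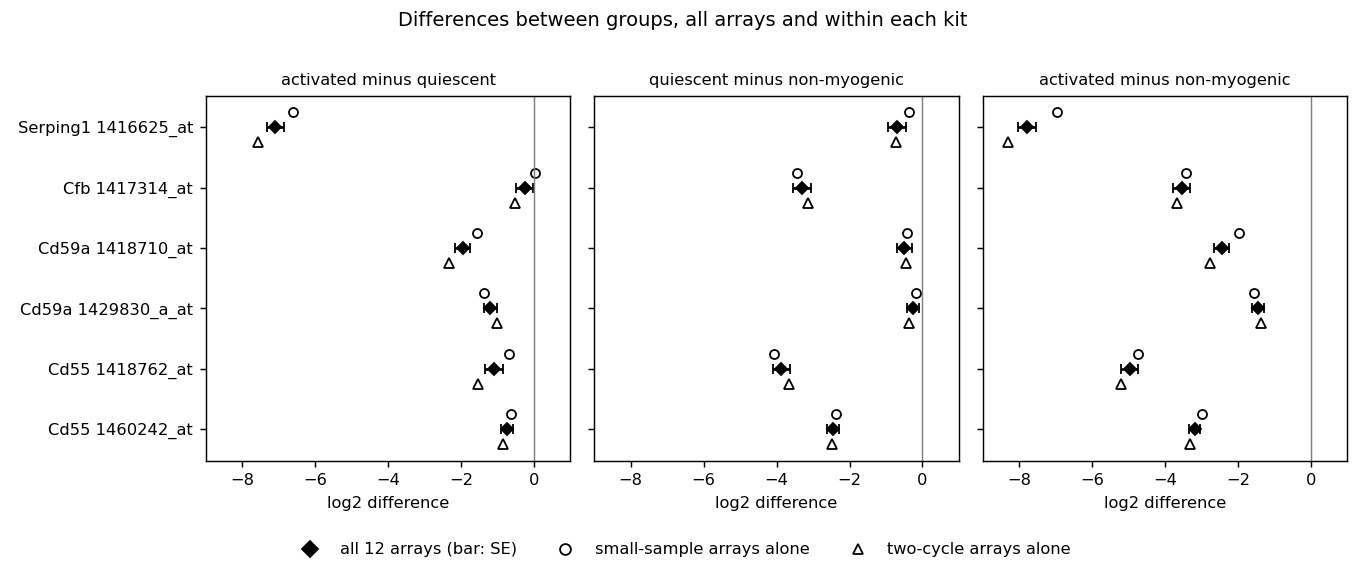
Log2 differences between groups for the same 6 probe sets: diamonds with SE bars from all 12 arrays, open circles from the small-sample and open triangles from the two-cycle arrays alone. The activated minus quiescent difference of Serping1 is -7.09 and that of Cfb -0.25, while for quiescent minus non-myogenic cells those of Cfb and Cd55 at 1418762_at are -3.30 and -3.87.

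C1q, the recognition protein of the classical pathway, is made of A, B and C chains, of which C1qa and C1qb encode the first pair. Both genes had low signals in all groups, and none of their 4 probe sets reached the filter. C1qa at 1417381_at had 9.23, 5.09, 2.49 and 2.36 on the quiescent arrays, 1.96, 1.36, 1.59 and 2.41 on the activated arrays and 7.29, 1.7, 2.73 and 7.39 on the non-myogenic arrays. These values overlapped between all groups, and the log2 differences of -0.22, -0.05 and -0.27 (activated minus quiescent, quiescent minus non-myogenic, activated minus non-myogenic) had limma adjusted p values of 0.216, 0.842 and 0.156.

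Of the C1qb probe sets 1434366_x_at was the highest in signal. Its quiescent arrays had 71.2, 12.6, 17.7 and 24.6, its activated arrays 5.71, 17.6, 10.7 and 7.87, and its non-myogenic arrays 37.1, 29.3, 29.4 and 23.9. The quiescent spread came from replicate 1, a small-sample array with a value above every other array. Non-myogenic cells were above activated cells on every array, with an activated minus non-myogenic difference of -0.91 ± 0.29 (limma adjusted p 0.0185), which lost the call in 6 of 24 alternatives, including median centring (-0.53, 0.191) and the fit without non-myogenic replicate 1 (-0.90, 0.0562). Activated minus quiescent was -0.74 ± 0.28 (limma adjusted p 0.0421) and -0.40 without quiescent replicate 1 (0.117), and that call was lost in 17 of 24 alternatives, with limma adjusted p values from 0.00407 to 0.33, and 0.0705 with the replicate number as a block.

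The other C1qb probe sets gave no called difference over all arrays, and their arrays overlapped. At 1417063_at the signals were 1.74 to 30.0 in quiescent, 1.31 to 14.7 in activated and 1.49 to 23.1 in non-myogenic cells. At 1437726_x_at they were 1.61 to 23.2, 0.656 to 9.79 and 0.802 to 11.9, and activated minus quiescent was -0.27 over all arrays (limma adjusted p 0.391), -0.94 on the small-sample arrays alone (0.0498) and 0.40 on the two-cycle arrays alone (0.142). Macrophage and leukocyte markers were low as well: 4 of 15 reached the filter, and their summed signal over the 15 genes was 383 to 1038 in quiescent, 309 to 347 in activated and 468 to 910 in non-myogenic cells. Ptprc, which encodes CD45, had a mean of 27.8 ± 20.7 (SD, n = 4), 4.59 ± 4.43 and 27.5 ± 12.7, below the filter like C1q. None of the 15 markers was at 0 on any array, as in every other list, which does not tell their signals from background. Of the 4 that reached the filter, Csf1r, the macrophage growth factor receptor (81.5, 28.9 and 88.3), and Lyz2, which encodes a lysozyme, fell between quiescent and activated cells (-1.06 and -1.75, limma adjusted p 0.000194 and 0.000255), and Cd14 was not called (-0.33, 0.151). Laptm5, a lysosomal membrane protein gene, had 68.5, 103 and 44.2, and its activated minus quiescent difference of 0.54 was not called (limma adjusted p 0.0859), while activated minus non-myogenic was 0.92 (0.00809). C1qc, the gene of the C chain, had 19.0 ± 19.8, 1.25 ± 0.718 and 19.8 ± 16.1. The part of these cells in the C1q signals was not tested.

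**Figure D3:**
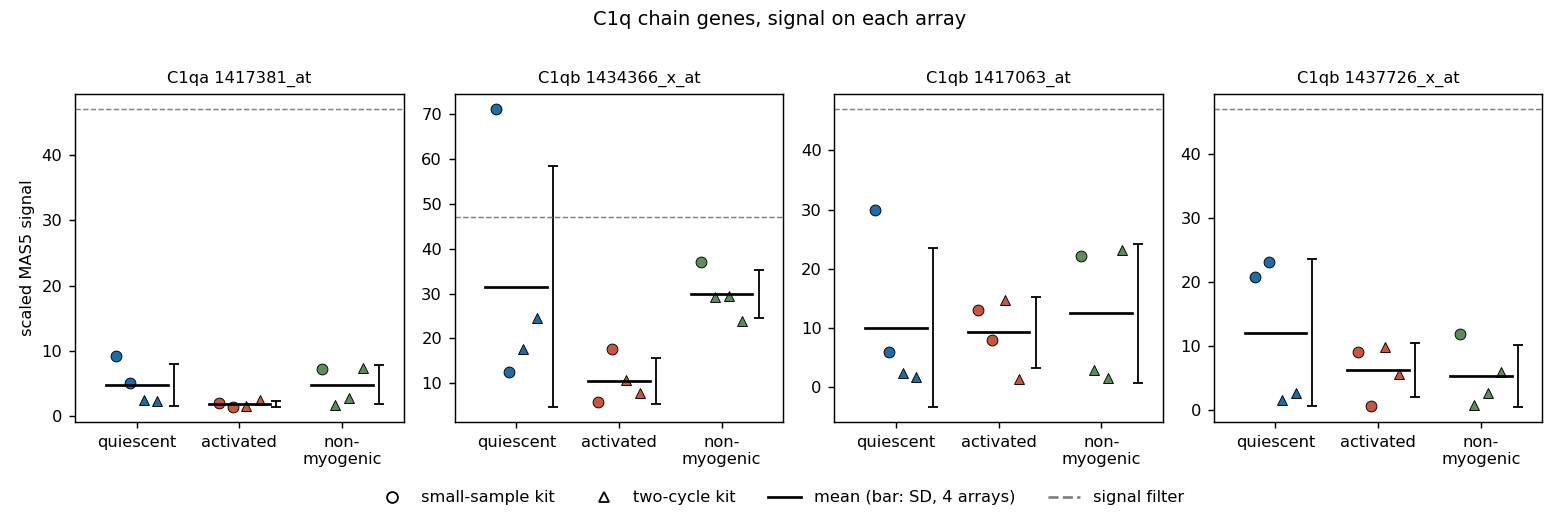
Scaled signal of the C1qa probe set and the 3 C1qb probe sets on each array, in 3 groups of 4; circles are small-sample and triangles two-cycle arrays, horizontal lines the group means, vertical bars the SD, and the dashed line the signal filter of 47.028. Of these values only C1qb at 1434366_x_at on quiescent replicate 1, at 71.2, lies above the filter.

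Counted over all 10 probe sets in the fit without a filter, where probe sets of 1 gene are not independent, 6 were lower and 0 higher in activated than in quiescent cells. In this fit 31.3% of all probe sets were called lower and 19.7% higher. The median log2 difference was -0.74 over the 10 and -0.19 over all probe sets. Between quiescent and non-myogenic cells 4 of the 10 were lower and 0 higher, against 16% and 19.2% of all, with medians of -0.40 and 0.11. Between activated and non-myogenic cells 7 of the 10 were lower and 0 higher, against 26.9% and 21.9% of all, with medians of -1.95 and -0.08. The 0 complement probe sets called higher by limma in these comparisons were also 0 at an unadjusted p under 0.05, and no other tool was run.

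Among the 12072 probe sets past the filter 37.6% were called lower and 30.7% higher in activated than in quiescent cells. The shares were 24.0% lower and 27.4% higher between quiescent and non-myogenic cells, and 35.9% lower and 34.1% higher between activated and non-myogenic cells. These splits moved with the scaling. Of the calls between activated and quiescent cells 45.0% were higher in the main setting, 59.0% with unscaled signals and 65.7% with median centring. Between quiescent and non-myogenic cells the share was 53.4%, and 23.6% with unscaled signals, and between activated and non-myogenic cells it was 48.8%, and 65.4% with median centring. The median of all log2 differences between activated and quiescent cells was -0.12 in the main setting, 0.17 unscaled, 0.32 with median centring and 0.03 with quantile normalization. It was 0.08, and -0.29 unscaled, between quiescent and non-myogenic cells, and -0.04, and 0.38 with median centring, between activated and non-myogenic cells. The activated minus quiescent differences of Serping1 (-7.09) and Cd59a (-1.95 at 1418710_at) were larger than any of these shifts. That of Cd55 at 1460242_at moved from -0.73 to -0.42 with median centring and to -0.36 with quantile normalization. That of Cfb moved from -0.25 to 0.07 with median centring.

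Markers of cells other than satellite cells also differed between the groups, though not every list moved as a whole. In activated against quiescent cells 37.6% of all probe sets tested were called lower and 30.7% higher, and the counts that follow stand against these shares. All 12 fibroadipogenic markers with a probe set fell between quiescent and activated cells. Their summed signal was 13469 to 33905 in quiescent, 1371 to 1643 in activated and 51444 to 90522 in non-myogenic cells. All 12 endothelial markers fell too, with sums of 2631 to 4610, 239 to 261 and 12807 to 14846. Of 9 pericyte and smooth muscle markers 6 fell, 2 were not called (Acta2 and Cnn1) and Cspg4 rose (0.74, limma adjusted p 0.00835). Of 3 adipocyte markers tested 2 fell and Car3 was not called (-0.29, limma adjusted p 0.746), and all 3 Schwann cell markers tested fell. Of 10 satellite cell markers 9 fell as well, and Itga7 was not called (-0.07, limma adjusted p 0.717). The median log2 difference was -3.19 for satellite cell, -2.74 for fibroadipogenic and -2.57 for endothelial markers. These lists were chosen with earlier results of these data known, so the medians are a description only. Relative to non-myogenic cells, the quiescent mean of a fibroadipogenic marker had a median of 11.3% (0.811% to 58.5%), of an endothelial marker 23.6% (10.4% to 152%) and of a pericyte or smooth muscle marker 18.0% (3.44% to 68.4%). Cfb and Cd55, at 5.14% to 12.6%, lay within the range of the fibroadipogenic markers and within that of the pericyte and smooth muscle markers. Cd55 at 12.6% also lay within the endothelial range. Serping1, at 58.9%, was level with the highest fibroadipogenic marker, the collagen gene Col3a1 at 58.5%, whose log2 difference of -0.60 was slightly smaller than the -0.70 of Serping1. Serping1 also lay within the pericyte and smooth muscle range, and Cd59a, at 72.8% and 78.9%, lay above it. Serping1 and Cd59a lay within the endothelial range only through Vwf. Among the endothelial markers Vwf alone, with a quiescent mean of 960 ± 665 (SD, n = 4), was at 152%, and the next highest was Emcn at 40.7%. Markers past the filter in non-myogenic cells had a median of 51.9% (22.4% to 74.4%) for adipocytes, 67.3% (31.7% to 154%) for Schwann cells and 88.3% (73.0% to 97.8%) for macrophages and leukocytes, and the adipocyte gene Adipoq was below the filter at 15.6, 4.58 and 14.5. Serping1 and both Cd59a values lay within the Schwann cell range. Serping1 and Cd59a at 72.8% lay within the adipocyte range, and Cd59a at 78.9% within the macrophage and leukocyte range. Pdgfra, the receptor that marks fibroadipogenic cells, was at 158 ± 92.6 (SD, n = 4), 3.69 ± 1.80 and 3023 ± 213, and the endothelial adhesion gene Pecam1 was at 76.6, 4.99 and 221. The part of such cells in the complement signals was not tested, and in these bulk samples fewer cells of a type and less RNA per cell cannot be told apart.

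**Figure D4:**
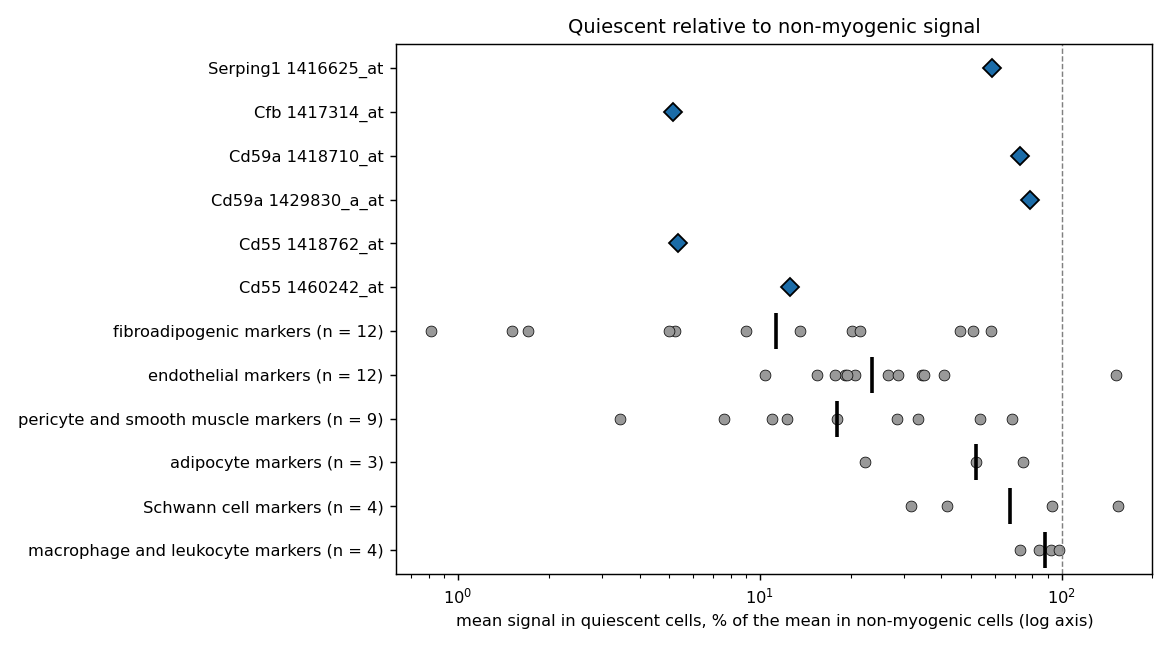
Mean quiescent signal as a percentage of the mean non-myogenic signal (log axis) for the 6 complement probe sets (diamonds) and for marker genes of other cell types with a non-myogenic mean of at least 47.028 (grey circles; black ticks are medians). Cfb is at 5.14% and Cd55 at 5.36% and 12.6%, while Serping1 is at 58.9% and Cd59a at 72.8% and 78.9%. The marker medians are 11.3% (fibroadipogenic), 18.0% (pericyte and smooth muscle), 23.6% (endothelial), 51.9% (adipocyte), 67.3% (Schwann cell) and 88.3% (macrophage and leukocyte).

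The signal ratio of 3' to 5' Gapdh control probe sets was 4.02 ± 0.969 (SD, n = 4) in quiescent, 1.75 ± 0.411 in activated and 3.87 ± 0.916 in non-myogenic cells, so the activated cells stood apart, as for Serping1 and Cd59a. The same ratio of beta-actin was 2.63 ± 1.04, 1.61 ± 0.346 and 1.96 ± 0.374, with activated (1.26 to 1.92) and non-myogenic arrays (1.44 to 2.28) overlapping. The part of RNA quality in those results was not tested.

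Upstream regions are shown for Cd59a and Cd55, membrane inhibitors that were both lower in activated than in quiescent cells. They differed in how far quiescent cells lay below non-myogenic cells. RefSeq promoter windows of the GRCm38.p6 build, from 250 bases before to 50 bases after the gene start, were on hand for 3 of the 6 measured genes, Cd55, Cd59a and C1qb. That of Cd59a lies on the plus strand of chr2:104095551-104095850, holds 45.7% G and C and 1 CpG. That of Cd55 lies on the minus strand of chr1:130462695-130462994, holds 63.3% G and C and 12 CpG, where the median window has 52.7%. Each is written 5′ to 3′ on the gene's strand, with a match to the interferon-stimulated response element core in capitals; Cd55 has none.
Cd59a: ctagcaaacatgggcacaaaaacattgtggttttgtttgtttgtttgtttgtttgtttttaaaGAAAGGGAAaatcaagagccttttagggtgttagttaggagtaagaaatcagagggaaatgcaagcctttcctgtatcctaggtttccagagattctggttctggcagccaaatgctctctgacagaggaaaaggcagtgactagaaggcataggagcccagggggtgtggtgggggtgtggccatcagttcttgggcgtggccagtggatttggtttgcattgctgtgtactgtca
Cd55: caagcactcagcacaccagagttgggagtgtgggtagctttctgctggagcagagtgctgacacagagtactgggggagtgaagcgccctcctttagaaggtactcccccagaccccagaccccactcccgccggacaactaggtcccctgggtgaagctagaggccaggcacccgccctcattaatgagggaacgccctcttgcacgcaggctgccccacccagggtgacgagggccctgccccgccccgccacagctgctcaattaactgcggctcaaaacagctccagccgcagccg

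Motifs of factors known to act on complement genes were searched on both strands, and the capitals in the Cd59a window mark the match found. The interferon-stimulated response element core GAAANNGAA matched Cd59a alone of the 3 measured genes, as GAAAGGGAA at base 64 of its window, and matches 8.56% of all 32851 windows. The interferon-gamma activated site TTCNNNGAA, the NF-kB consensus and the C/EBP core TTGCNNAA matched 0 of the 3 and 8.30%, 8.46% and 10.8% of all windows. These are descriptions of letters in a window and not of binding.

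Other components of the cascade were read from a list of 23 genes, of which 16 had a probe set and 4 reached the filter. C1ra and C1s1, which encode the proteases that the C1 inhibitor inactivates, were far lower in quiescent than in non-myogenic cells, like Cd55, and lower again in activated cells. C1s1 at 1424041_s_at had 330, 133, 352 and 268 in quiescent, 6.54, 4.41, 1.46 and 0.984 in activated and 3244, 4230, 3847 and 4552 in non-myogenic cells, with no overlap. Its log2 differences were -3.91 ± 0.25 for activated minus quiescent and -3.83 ± 0.25 for quiescent minus non-myogenic (limma adjusted p 1.6e-08 and 5.48e-08). Those of C1ra were -3.19 ± 0.33 and -3.34 ± 0.33 (limma adjusted p 1.6e-06 and 2.76e-06), and quiescent cells stood at 6.82% of the non-myogenic mean for C1s1 and 9.86% for C1ra. C2, the classical pathway counterpart of factor B, resembled Cfb: -3.50 ± 0.25 for quiescent minus non-myogenic (limma adjusted p 1.31e-07) and -0.37 ± 0.25 for activated minus quiescent (0.202). Like Cfb, it reached the filter only through the non-myogenic arrays, so its difference from them is partly a matter of selection. Its means were 20.1 ± 12.2 (SD, n = 4) in quiescent, 12.4 ± 9.83 in activated and 349 ± 59.4 in non-myogenic cells.

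Masp1, a protease of the lectin pathway, was the 1 component called higher in activated cells. Its signals at 1438602_s_at were 111, 68.5, 64.3 and 55.3 in quiescent, 197, 478, 400 and 331 in activated and 111, 52.1, 83.9 and 57.4 in non-myogenic cells. The activated arrays lay above both other groups, which overlapped. Activated minus quiescent was 2.00 ± 0.27 (limma adjusted p 1.8e-05), and 3.12 at its other probe set, 1425985_s_at (7.83e-07). Quiescent minus non-myogenic differed between the probe sets, -0.08 at the former (limma adjusted p 0.819; 0.10 without non-myogenic replicate 1) and -1.11 at the latter (0.008; 0.0551 without that replicate and 0.11 within the two-cycle kit). Over the 4 components tested, 1 was higher and 2 lower between activated and quiescent cells, against 30.7% and 37.6% of all probe sets tested. Between quiescent and non-myogenic cells 3 were lower, against 24.0% of all. Between activated and non-myogenic cells 1 was higher and 3 lower, against 34.1% and 35.9% of all. With 4 genes these counts are a description only. Masp1 kept its activated minus quiescent call in all 27 alternatives; its activated minus non-myogenic difference of 1.92 had a limma adjusted p of 0.0745 within the small-sample kit (1.36).

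Of 14 other complement inhibitors 12 had a probe set and 4 reached the filter. Clu, which encodes clusterin, and Vtn, which encodes vitronectin, both fluid-phase inhibitors of the pore, lay between Serping1 and Cd55 in their quiescent share, at 37.8% and 47.8% of the non-myogenic mean. Both were lower in activated than in quiescent cells, Clu with a log2 difference of -3.63 ± 0.17 at 1454849_x_at (limma adjusted p 1.37e-09) and Vtn with -4.57 ± 0.23 at 1420484_a_at (2.44e-09). Quiescent minus non-myogenic was -1.42 for Clu (limma adjusted p 2.01e-05) and -1.04 for Vtn (0.0026), with -1.12 (0.089) and -0.74 (0.18) within the small-sample kit. At the other Clu probe sets, 1418626_a_at, 1437458_x_at and 1437689_x_at, activated minus quiescent was -2.92, -4.52 and -4.44. At the other Vtn probe set, 1455098_a_at, it was -2.19. Quiescent minus non-myogenic was -1.65, -0.98 and -1.25 at these Clu probe sets and -1.19 at that of Vtn. Cr1l, the rodent membrane inhibitor Crry, had means of 577 ± 37.0 (SD, n = 4), 399 ± 51.0 and 1335 ± 191. Its activated minus quiescent difference was -0.52 ± 0.15 (limma adjusted p 0.00617), but -0.07 with median centring (0.716), -0.22 unscaled (0.373) and -0.40 within the small-sample kit (0.194). Quiescent minus non-myogenic was -1.16 for Cr1l (limma adjusted p 2.68e-05), and -0.91 within the small-sample kit (0.0733).

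C1qbp, a mostly mitochondrial protein that can bind C1q, went against the list, being higher in quiescent than in non-myogenic cells by 1.07 ± 0.16 (limma adjusted p 7.66e-05), and by 1.11 within the small-sample kit (0.054). Its activated minus quiescent difference depended on the probe set, 0.13 at 1455821_x_at (limma adjusted p 0.475) and 1.43 at 1448274_at (1.38e-06). The former was -0.10 within the small-sample kit (limma adjusted p 0.764) and 0.58 with median centring (0.00472), 0.49 with quantile normalization (0.00783) and 0.44 unscaled (0.0344). Of 9 complement receptors 8 had a probe set and 1 reached the filter, Cd93, an endothelial and myeloid membrane protein once described as a C1q receptor. Its log2 difference was -4.03 ± 0.22 for activated minus quiescent and -2.59 ± 0.23 for quiescent minus non-myogenic cells (limma adjusted p 5.59e-09 and 8.53e-07).

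**Figure D5:**
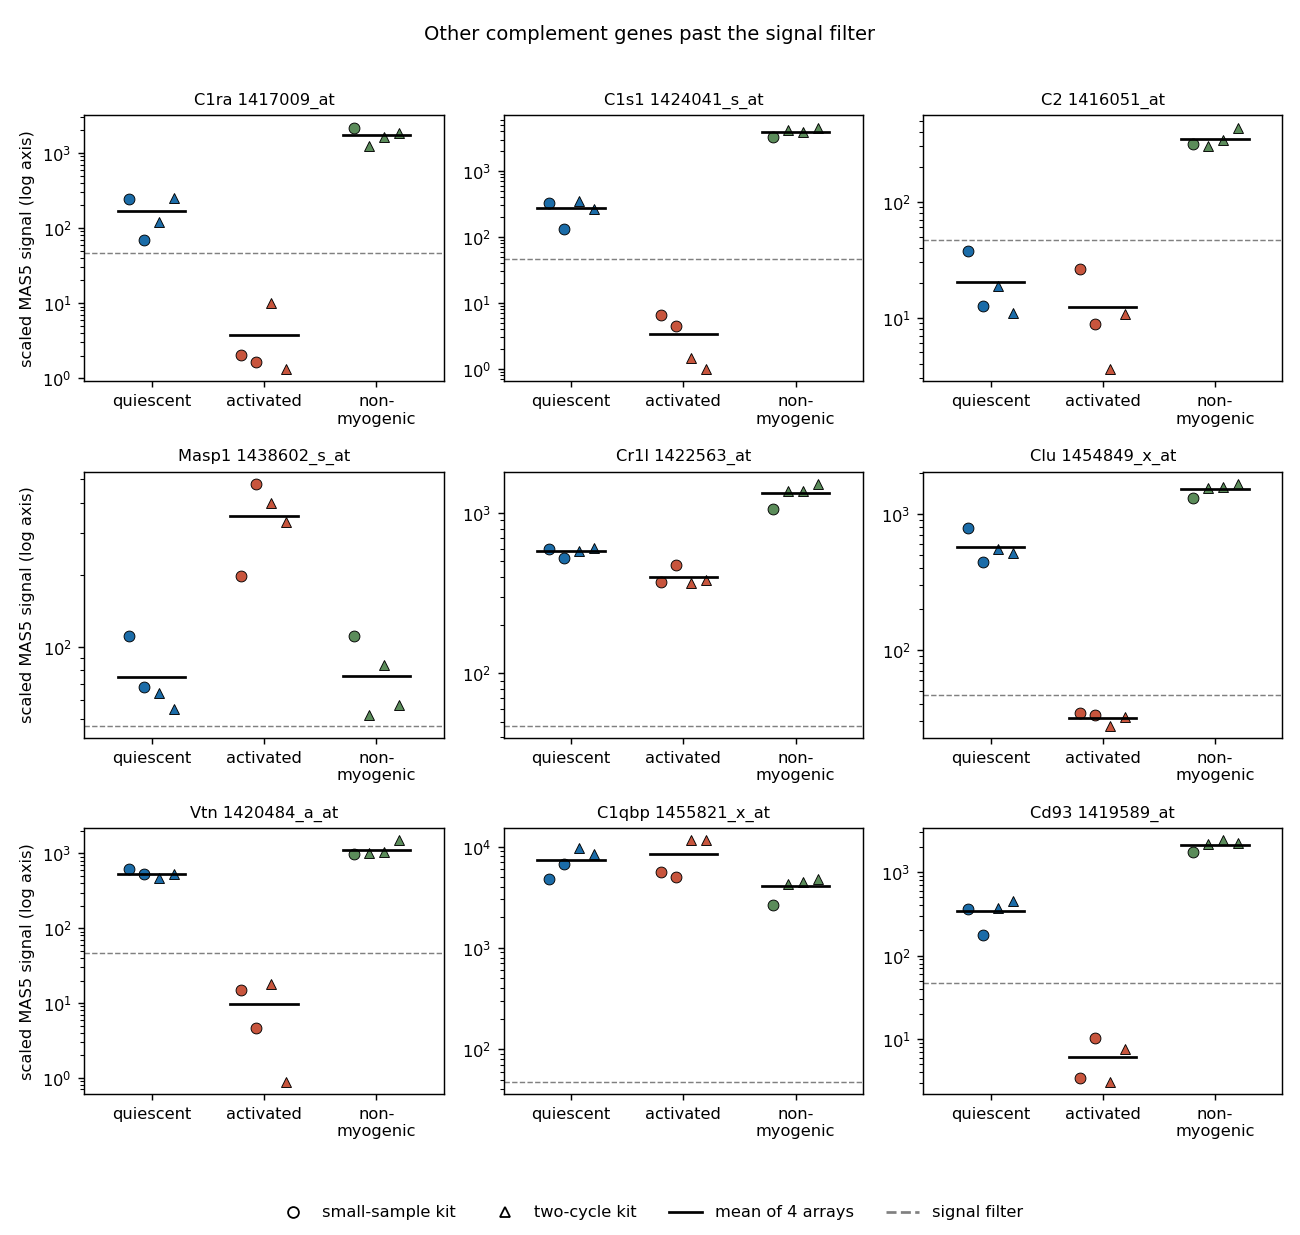
Scaled signal (log axis) of the 9 other complement genes that reached the signal filter, on each of the 12 arrays in 3 groups of 4; circles are small-sample and triangles two-cycle arrays, black lines the group means, and the dashed line the filter of 47.028. C1ra, C1s1, C2 and Cd93 are highest in non-myogenic cells, and Masp1 is highest in activated cells, at 197 to 478.

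The genes whose log2 signals followed each complement gene most closely over the 12 arrays differed between them, as a description over arrays that share group and kit. For Serping1 they were Fabp4 (r = 0.997), Dpt (0.996) and Abca8a (0.996). For Cfb they were Mme (0.990), Aldh1a3 (0.990) and Apcdd1 (0.989), and for Cd55 Igfbp6 (0.994), Adm (0.993) and Cpxm2 (0.992). For Cd59a they were Galnt16 (0.989), Phyh (0.987) and Myl12b (0.986). C1qb and C1qa, at their low signals, reached 0.871 with Mospd2 and 0.906 with Cish.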

How the data were processed

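RNA from the 12 samples was hybridised to 1 array each. Values are linear MAS5 intensity values per probe set as deposited by the authors, per the submitters' processing notes; MAS5 summarises each array alone after mismatch subtraction, and its version, settings and detection calls were not used here. Probe sets were named through the platform annotation, with symbols updated by Entrez ID for 20351 of 20380; 64 controls, 1555 probe sets without a listed gene and 691 with more than 1 were not tested. Arrays were scaled to a common 2% trimmed mean, and probe sets with a mean signal under 0.2 of it (47.028) were filtered. Log2(signal + 14.6964), the pseudocount being 1/16 of that mean, was fitted with limma 3.58.1 in R 4.3.3 on all 12 arrays with group and kit (8 residual degrees of freedom), after testing on simulated data. The number of arrays limits precision.

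Members and lists were chosen with earlier results of these data known. Named are all members, up to 4 called genes per complement list with the smallest adjusted p and any against its list's direction, defining cell markers, and 3 genes most alike each member by Pearson's r (only the closest is printed for C1qa and C1qb). C1qc and probe sets that disagree were named after their values were seen. No 2 arrays held identical values. Deviations of same-numbered activated and quiescent arrays, which also share a kit, correlated at 0.172 to 0.313, which meets the criterion for pairing (all above 0.1), and those of non-myogenic arrays, at -0.387 to 0.401 with the other groups, do not. The kit was not removed from these deviations, so the criterion cannot tell pairing from a shared kit. The values printed come from the fit without a pair term, and the fit with the replicate number as a block is named where it ends a call. Alternatives were 15 settings and 12 left-out arrays; the fits of low probe sets without a filter under these settings and the interaction of kit and group were added after seeing the data. Figures were drawn with matplotlib 3.10.9.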

Additional observations from a re-analysis of the deposited data

How the results depend on the processing

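For the 5 complement probe sets past the filter, 379 of 396 differences under alternatives kept direction and call, 9 lost the call, 5 gained it and 3 changed sign, all of Cfb between activated and quiescent cells (0.02, 0.07 and 0.02, as given above). With small-sample arrays alone 2 complement probe sets, not 4, were lower in activated than in quiescent cells, and the probe sets called in all were 2072 against 6202 between quiescent and non-myogenic and 5281 against 8450 between activated and non-myogenic cells. A filter at 0.5 of the trimmed mean left 2, against 4, lower in quiescent and 3, against 5, lower in activated than in non-myogenic cells, since fewer probe sets were tested. Leaving out each array gave 7762 to 8224, 5567 to 6147 and 7872 to 8644 calls in the 3 comparisons, and 4 to 4, 3 to 5 and 5 to 5 complement probe sets lower. Of the 10 complement probe sets 7 had their highest mean in non-myogenic cells, 6 to 9 with an array left out. The share of all probe sets was not counted, so this number has no background and is a description only. It includes probe sets of the same gene, and C1qb at 1417063_at, whose means of 9.99, 9.23 and 12.4 (quiescent, activated, non-myogenic) were far below the filter. The replicate block gave 7816, 4948 and 7760 calls and, among probe sets past the filter, ended only the call of Serping1 between quiescent and non-myogenic cells (-0.65). For probe sets below it, the block ended both calls of C1qb at 1434366_x_at (-0.74 and -0.81).

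With a pseudocount of 1/4 of the trimmed mean, activated minus quiescent was -0.50 and -0.31 for Cd55 and -0.56 for Cd59a at 1429830_a_at, while quiescent minus non-myogenic was -2.12 for Cfb. Values of C1q below the filter changed sign where they were near 0, in no case with a called value before the change. Activated minus quiescent turned to -0.28 (small-sample arrays) and -0.0018 (larger pseudocount) for C1qb at 1417063_at, and to 0.40 (two-cycle arrays) and 0.07 (quantile normalization) at 1437726_x_at. Quiescent minus non-myogenic turned to 0.00017 (no kit term) and 0.22 (median centring) for C1qa and -0.07 (two-cycle arrays) for C1qb at 1437726_x_at. Activated minus non-myogenic turned with median centring to 0.12 for C1qa, 0.14 for C1qb at 1417063_at and 0.30 at 1437726_x_at. For the latter it also turned to 0.07 (no kit term), 0.33 (two-cycle arrays), 0.23 (quantile normalization), 0.04 (arrays compared only) and 0.05 (array weights). With an array left out, activated minus quiescent of C1qb at 1417063_at was -0.19, -0.11 and -0.01, quiescent minus non-myogenic was 0.03 for C1qa and 0.07 for C1qb at 1434366_x_at, and activated minus non-myogenic was 0.02 and 0.16 for C1qb at 1437726_x_at. The cause was not tested. No detection calls were used, so no limit of background could be set for signals such as those of C1q.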
